A study of Mus musculus with 6 samples.

Results

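Interferon-induced genes and the genes that load and display peptides on class I major histocompatibility (MHC) molecules were followed in immortalized mouse embryonic fibroblasts (MEFs) with and without a knockout label for Nf2, the gene of the tumor suppressor Merlin. The members are the 38 listed gene symbols, all of which had a row among the 26231 genes of the deposited table. They fell into 17 antiviral effectors, 4 nucleic acid sensors, 4 transcription factors, 6 genes of ISG15, ubiquitin and ADP-ribose transfer, and 7 class I antigen presentation genes. The series holds 3 libraries labelled MEF WT (control) and 3 labelled MEF Nf2 KO, with replicate numbers 1, 2 and 3 in each line. All 6 came from FVB embryos of about 14 days per the labels, grown in DMEM with 10% FBS, sodium pyruvate and nonessential amino acids, and were kept without serum for 24 h before RNA extraction. According to the methods of the study, the cells carried loxP-flanked Nf2 alleles (Nf2 fl/fl) and SV40 large T antigen, and received a lentivirus with CMV-driven GFP (control) or with CMV-driven Cre and GFP (Nf2 KO). The methods describe 1 line of each kind, and nothing in the sources says that replicates were separate transductions, so p-values measure the spread between these samples, which may be technical.

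Type I interferons signal through the receptor chains Ifnar1 and Ifnar2 to the kinases Jak1 and Tyk2, which phosphorylate Stat2. With Irf9 it forms part of a complex that binds the interferon-stimulated response element (ISRE) in promoters, whereas interferon gamma acts through the gamma-activated sequence (GAS). Fibroblasts hold a basal level of many of these transcripts without infection, and class I molecules are present on nearly all nucleated cells.

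The libraries marked B (replicate 2) stood apart from those marked A (replicate 1) and 2018 (replicate 3), and the labels do not say what these marks are. With the line as a term, 3386 of 11067 tested genes differed between replicate 2 and replicates 1 and 3, 1195 higher and 2191 lower (limma, Benjamini-Hochberg adjusted p under 0.05), against 1553 higher and 1412 lower after quantile normalization and 1698 higher and 1536 lower after median centring. The depth recovered from the values was 13455230 to 19280957 reads in replicates 1 and 2 and 61179852 to 73021061 reads in replicate 3, so replicate 2 was not the shallowest. Collagen genes, Fn1, Vim and Pdgfrb, which mark fibroblasts, were detected in every library. The summed level of 12 fibroblast markers was 1782 to 2567 RPKM in replicate 2 and 2031 to 3399 RPKM in the others, and 6 of the 11 tested fell in replicate 2, while 4 of the 11 (Fn1, Pdgfra, Dcn and S100a4) fell in the Nf2 KO label, where 19.8% and 0.578% of all genes tested were called lower. Lum was listed at 0 in 2 libraries labelled Nf2 KO. Of 13 leukocyte markers, 11 were under 1 RPKM in every library, among them Ptprc at no more than 0.00896 RPKM, and their sum was 9.26 to 9.49 RPKM in replicate 2 against 7.73 to 12.1 RPKM in the others. The sums of the endothelial list (3.89 to 4.45 against 1.46 to 1.84 RPKM), the epithelial list (28.0 to 39.9 against 10.8 to 23.7 RPKM) and the skeletal muscle list (2.67 to 6.25 against 0.484 to 0.800 RPKM) were higher in replicate 2, and rested on Kdr, Krt19 and Acta1, while Pecam1, Epcam and Myog stayed under 1 RPKM. The part of these other transcripts in the results was not tested, and in bulk RNA fewer cells of a type and less RNA per cell cannot be told apart. Nf2 itself was at 14.3, 13.7 and 13.1 RPKM in WT (control) replicates 1, 2 and 3 and 15.4, 12.9 and 13.9 RPKM in the libraries labelled Nf2 KO. The lines overlapped, with a log2 difference of 0.03 (95% interval -0.20 to 0.26, exact two-sided permutation p = 0.8, the smallest possible being 0.1), so the libraries are called by their label throughout. The table has 1 value per gene, so the loxP-flanked exons could not be looked at separately.

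Promoter windows show how the members differ in the letters through which interferon signalling acts. RefSeq promoters (GRCm38.p6, 250 bases before to 50 after the annotated start, from the reference strain and not read from these cells) were found for 30 of the 38 members. The ISRE was searched as GAAA followed by any 2 bases and GAAA again, or TTTC with the same spacing for the other strand, and the GAS as TTCNNNGAA, which reads alike on both strands. An ISRE was present in 13 of the 30 members (43.3%) and in 3.99% of 27025 genes with a promoter in the same table, and a GAS in 7 of the 30 (23.3%) and in 9.55% of all genes. The stretches below hold the matches of the motif named for each group or gene in capitals, with 20 bases on each side. They are written along the gene's own strand. The first group are members whose level was lower in replicate 2 past the threshold, with an ISRE in Ifit1, Ifit3, Isg15, Stat2 and Gbp3 and a GAS in Irf1.
Ifit1 (chr19:34640765-34640833, + strand): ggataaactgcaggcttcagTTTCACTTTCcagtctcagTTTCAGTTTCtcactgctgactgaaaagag
Ifit3 (chr19:34583353-34583436, + strand): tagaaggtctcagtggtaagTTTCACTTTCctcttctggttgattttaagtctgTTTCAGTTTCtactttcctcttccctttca
Isg15 (chr4:156200855-156200916, - strand): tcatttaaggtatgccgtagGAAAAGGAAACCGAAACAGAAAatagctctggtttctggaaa
Stat2 (chr10:128270256-128270305, + strand): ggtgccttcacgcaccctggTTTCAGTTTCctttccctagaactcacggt
Gbp3 (chr3:142559979-142560034, + strand): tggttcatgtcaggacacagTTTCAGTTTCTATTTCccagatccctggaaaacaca
Irf1 (chr11:53769904-53769952, + strand): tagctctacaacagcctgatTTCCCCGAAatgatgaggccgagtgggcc

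The second group also hold an ISRE, but their replicate 2 difference did not pass the threshold. Bst2 holds a GAS too, from position -136, which overlaps its ISRE and is not marked in capitals of its own.
Bst2 (chr8:71537567-71537622, - strand): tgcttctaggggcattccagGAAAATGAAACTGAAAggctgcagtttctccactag
Gbp2 (chr3:142620584-142620633, + strand): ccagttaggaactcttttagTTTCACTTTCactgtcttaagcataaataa
B2m (chr2:122147528-122147577, + strand): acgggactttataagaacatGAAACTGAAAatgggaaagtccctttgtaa
Ifit1 and Ifit3 each had a pair of separate matches, whose first bases lay at positions -104 and -85 from the start in Ifit1. In Isg15 and Gbp3 the matches overlapped each other, and the lone match of Stat2 lay farthest upstream of these.

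**Figure D1:**
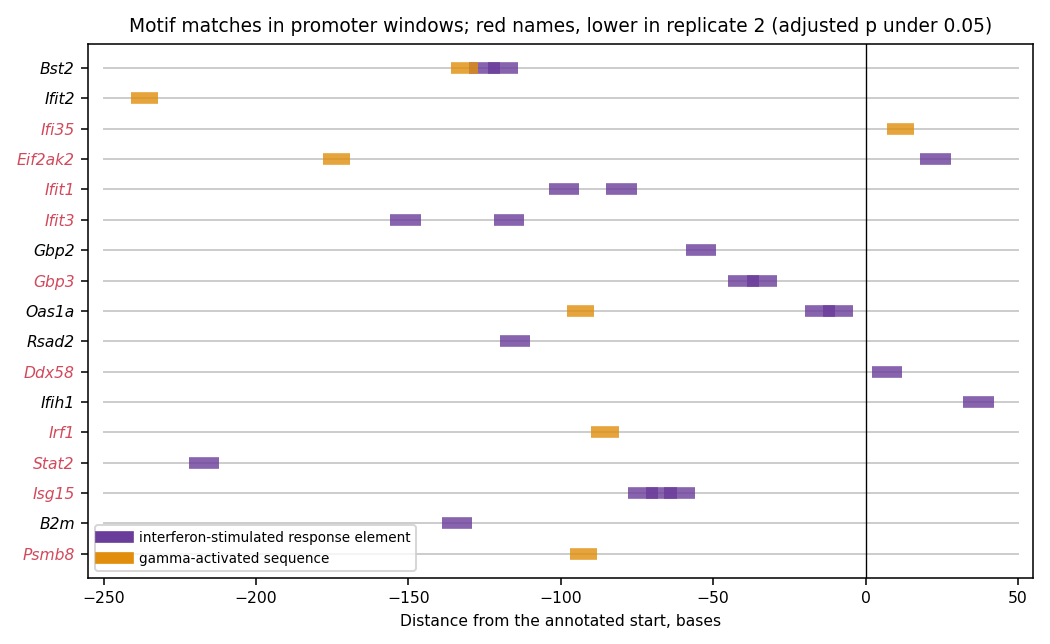
Positions of ISRE (purple) and GAS (orange) matches in promoter windows of the 17 members with a match, on an axis of bases from the annotated start. Red gene names mark members lower in replicate 2 at an adjusted p under 0.05, and black names the other members: both kinds are seen with either motif.

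Across the members, levels were highest for class I molecules and lowest for antiviral genes such as Mx1, compared here per exon length. B2m, the light chain shared by class I molecules, was highest at 367 ± 34.5 RPKM in WT (control) and 334 ± 12.0 RPKM in the libraries labelled Nf2 KO (SD, n = 3 each). The heavy chain H2-D1 came next at 101 ± 8.96 RPKM in WT (control) and 81.8 ± 3.28 RPKM in the libraries labelled Nf2 KO (SD, n = 3 each), followed by H2-K1 at 36.9 ± 4.59 RPKM in WT (control) and 33.4 ± 6.08 RPKM in the libraries labelled Nf2 KO (SD, n = 3 each). Tapbp (tapasin, which holds the peptide transporter to empty class I molecules) was at 32.4 ± 10.5 RPKM in WT (control) and 26.7 ± 5.67 RPKM in the libraries labelled Nf2 KO (SD, n = 3 each), a range that overlapped that of H2-K1. Among the effectors Bst2 (tetherin, which keeps budding virions at the cell surface) had the highest mean, at 15.7, 16.7 and 18.2 RPKM in WT (control) replicates 1, 2 and 3 and 16.0, 10.2 and 20.5 RPKM in the libraries labelled Nf2 KO. Below these, 12 of the 38 members were under 1 RPKM in every library, and the median of the members' means was 2.01 RPKM. H2-K1 and H2-D1 share 22.8% and 26.7% of their 31-base stretches with other genes, mostly with each other, and the reference genome comes from another strain whose class I haplotype differs from that of FVB, so the split between them is uncertain.

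**Figure D2:**
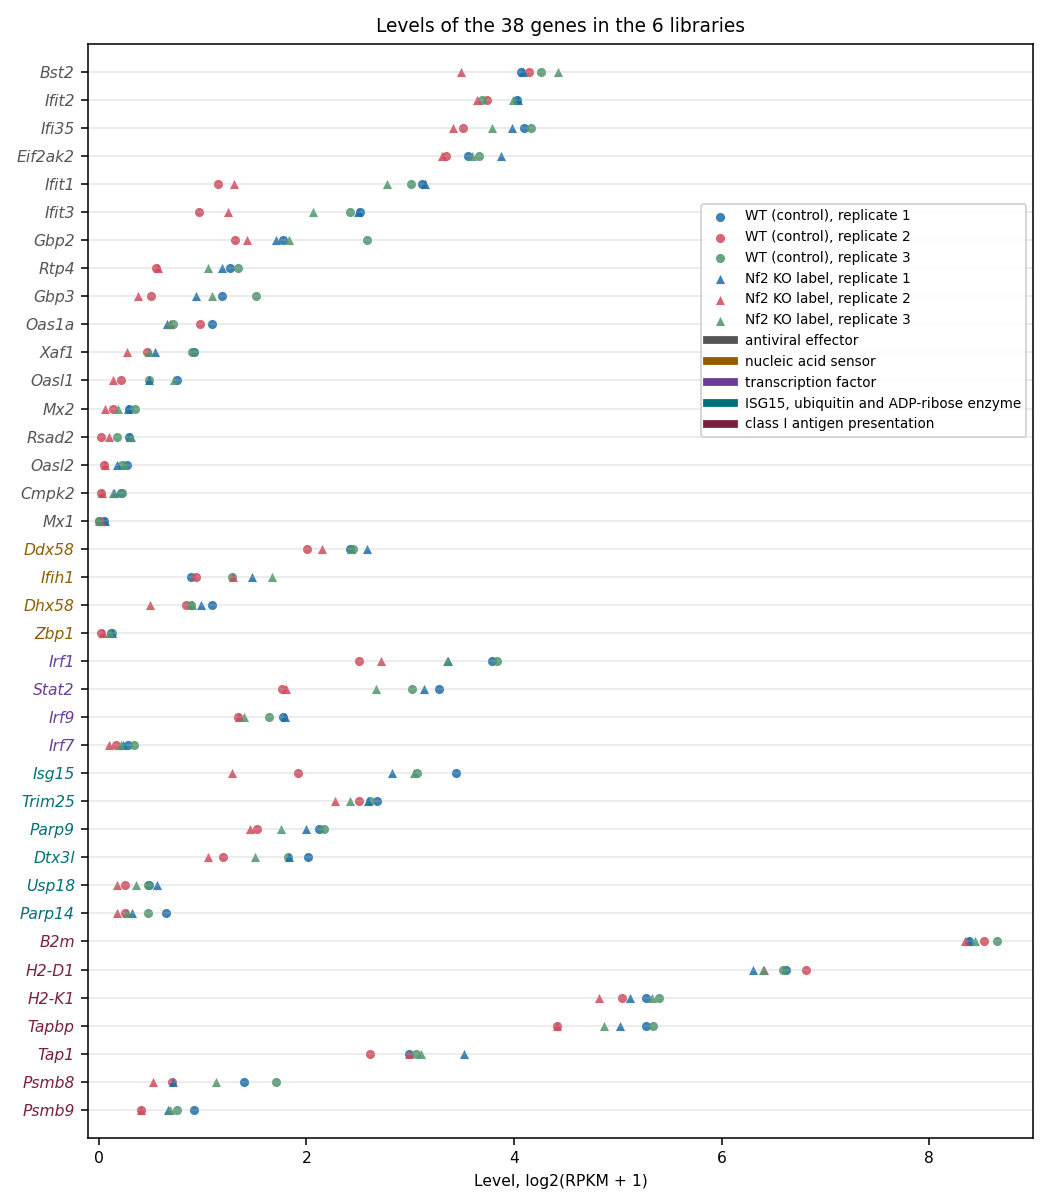
Levels of the 38 members in log2(RPKM + 1), with circles for WT (control) and triangles for the Nf2 KO label, colored by replicate number, and gene names colored by role. The red symbols of replicate 2 lie left of the other 4 in 30 of the 38 members, and those of Ifit1, Ifit3, Isg15, Stat2 and Irf1 lie farthest to the left of the rest.

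The libraries of replicate 2 had lower levels of interferon-induced genes in both lines. For 21 of the 24 tested members this difference was larger than that between the lines. How often this held among all genes tested was not counted, where 30.6% were called in replicate 2 and 1.06% between the lines. Of the 24 members that reached 1 RPKM in at least 3 libraries, 15 fell in replicate 2 and none rose, where 30.6% of all tested genes were called, 10.8% higher and 19.8% lower. The median difference of the 24 on the log2(RPKM + 1) scale was -0.54, against -0.08 for all genes tested. The mean was lower in replicate 2 for 36 of the 38 members, a share not counted over all genes. Both replicate 2 libraries lay below the other 4 for 30 of the 38. That position was taken by 18.4% of all genes and by 29.8% of those tested. By role, 6 of 9 tested effectors, 1 of 2 sensors, 2 of 3 transcription factors, 3 of 4 genes of the ISG15 group and 3 of 6 class I genes fell. Of the tested members, 3 (Rtp4, Gbp3 and Psmb8, all called) were under 1 RPKM in both replicate 2 libraries and passed the filter through the other libraries, so they had to differ. A filter on the mean of all 6 libraries called 14 of 23, where 19.6% of all genes were called lower. It removes Gbp3 only and lets Rtp4 and Psmb8 in through the same libraries. Without any filter, 7 of 38 members were called, all lower, where 1.92% of 26231 genes were called lower. Leaving out WT (control) replicate 2 called 6 members and leaving out the library labelled Nf2 KO replicate 2 called 8, all lower, where 4.63% and 3.76% of all genes tested were called lower. Each time 1 library was left in replicate 2 and assumed to vary like the rest. Against replicate 1 alone or replicate 3 alone, 15 were called each time, where 16.5% and 15.3% of all genes were called lower. Ifit1, Ifit3, Stat2 and Isg15 stayed past the threshold under every alternative tried, and Psmb8, Eif2ak2 and H2-K1 under the fewest.

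The tetratricopeptide effectors Ifit1 and Ifit3 had the largest falls among the tested effectors on the log2(RPKM + 1) scale. Ifit1 (chr19:34640871-34650009) was at 7.66, 1.21 and 7.04 RPKM in WT (control) replicates 1, 2 and 3 and 7.85, 1.46 and 5.85 RPKM in the libraries labelled Nf2 KO. Both replicate 2 libraries lay far below the other 4, the lowest of which was at 5.85 RPKM, with no overlap. Replicates 1 and 3 averaged 5.31 times replicate 2, a log2(RPKM + 1) difference of -1.79 (SE 0.12, limma adjusted p = 0.000661), and the fall was -1.92 within WT (control) and -1.66 within the Nf2 KO label. The replicate 2 values rested on 61.0 and 75.0 recovered reads, against 274 to 1144 in the others. Ifit3 (chr19:34583531-34588731) was at 4.72, 0.959 and 4.34 RPKM in WT (control) replicates 1, 2 and 3 and 4.66, 1.37 and 3.18 RPKM in the libraries labelled Nf2 KO. Again replicate 2 was lowest in each line without overlap, at -1.27 (SE 0.15, limma adjusted p = 0.00278), but 61.8% of the 31-base stretches of Ifit3 also occur in other genes, mostly Ifit3b, so reads may have been split between them. Ifit2, their neighbor (chr19:34550694-34576419), did not pass the test and was at 15.3, 12.4 and 11.9 RPKM in WT (control) replicates 1, 2 and 3 and 15.4, 11.5 and 14.9 RPKM in the libraries labelled Nf2 KO. Its replicate 2 values of 12.4 and 11.5 RPKM overlapped the other 4, with a difference of -0.24 (SE 0.11, limma adjusted p = 0.137).

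The other called effectors fell by less on the log2(RPKM + 1) scale, which understates low genes. As a ratio of means, replicates 1 and 3 were at 3.58 times replicate 2 for Gbp3, near the 3.64 of Ifit3. Gbp3 and Rtp4 passed the filter through the other libraries and had to differ. Gbp3, an interferon-induced guanylate-binding GTPase, was at 1.27, 0.420 and 1.85 RPKM in WT (control) replicates 1, 2 and 3 and 0.914, 0.302 and 1.13 RPKM in the libraries labelled Nf2 KO. Replicate 2 was lowest in both lines and did not overlap the rest, with a difference of -0.74 (SE 0.13, limma adjusted p = 0.00757). Rtp4, an interferon-induced transmembrane protein, was at 1.40, 0.469 and 1.53 RPKM in WT (control) replicates 1, 2 and 3 and 1.27, 0.487 and 1.08 RPKM in the libraries labelled Nf2 KO. Its replicate 2 values were below all others, by -0.65 (SE 0.11, limma adjusted p = 0.00588), and 13.9% of the exon bases of Rtp4 lie within exons of a second annotated gene on the same strand. Ifi35, a partner of Nmi, was at 16.0, 10.4 and 17.0 RPKM in WT (control) replicates 1, 2 and 3 and 14.8, 9.67 and 12.8 RPKM in the libraries labelled Nf2 KO. All replicate 2 values were below the others, by -0.55 (SE 0.09, limma adjusted p = 0.00531), although 16.8% of its exon bases overlap a gene on the opposite strand and the sources do not say whether strand was used in counting. Eif2ak2 (PKR, the kinase that halts translation on double-stranded RNA) was at 10.8, 9.13 and 11.7 RPKM in WT (control) replicates 1, 2 and 3 and 13.7, 8.86 and 11.1 RPKM in the libraries labelled Nf2 KO. Its fall was the smallest among the called effectors, at -0.35 (SE 0.10, limma adjusted p = 0.0355), and it was kept in 9 of 17 alternatives, with adjusted p up to 0.292. Gbp2 and Bst2 did not pass, at -0.60 (SE 0.24, limma adjusted p = 0.0968) and -0.39 (SE 0.18, limma adjusted p = 0.149). For Bst2 the library labelled Nf2 KO replicate 2 was the lowest of all, while WT (control) replicate 2 lay among the others.

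Of the transcription factors, Stat2 and Irf1 fell. Stat2 (chr10:128270559-128292849), the type I interferon signal carrier, was at 8.67, 2.40 and 7.12 RPKM in WT (control) replicates 1, 2 and 3 and 7.75, 2.50 and 5.35 RPKM in the libraries labelled Nf2 KO. The 2 libraries of replicate 2 lay close to each other, and the lowest of the rest was at 5.35 RPKM. The difference was -1.24 (SE 0.15, limma adjusted p = 0.00284), and replicates 1 and 3 averaged 2.95 times replicate 2. Irf1 (chr11:53770014-53778374), which is induced by interferon gamma, was at 12.9, 4.67 and 13.3 RPKM in WT (control) replicates 1, 2 and 3 and 9.29, 5.58 and 9.24 RPKM in the libraries labelled Nf2 KO. Replicate 2 did not overlap the rest in either line, at -0.98 (SE 0.14, limma adjusted p = 0.0048). Irf9, the DNA-binding partner of Stat2, was the lowest in replicate 2 without overlap but changed by -0.31 (SE 0.13, limma adjusted p = 0.107) and did not pass. Irf7, the amplifier of type I interferon production, was at 0.264 RPKM or less in all libraries.

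Of the sensors of viral RNA, Ddx58 (RIG-I) was at 4.36, 3.03 and 4.47 RPKM in WT (control) replicates 1, 2 and 3 and 5.0, 3.44 and 4.40 RPKM in the libraries labelled Nf2 KO. Replicate 2 was lowest in both lines, and the fall was -0.39 (SE 0.08, limma adjusted p = 0.0133). Ifih1 (MDA5), the sensor of long double-stranded RNA, was not called in this comparison, with a difference of -0.21 (SE 0.14, limma adjusted p = 0.261).

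Within the ISG15 group, the ubiquitin-like modifier Isg15 (chr4:156199424-156200818) fell most. It was at 9.83, 2.79 and 7.39 RPKM in WT (control) replicates 1, 2 and 3 and 6.07, 1.44 and 7.20 RPKM in the libraries labelled Nf2 KO, with 39.98 and 20.99 recovered reads in the replicate 2 libraries. Both were well under the lowest of the other 4 at 6.07 RPKM, at -1.49 (SE 0.13, limma adjusted p = 0.00111). The ubiquitin ligase Dtx3l was at 3.05, 1.30 and 2.53 RPKM in WT (control) replicates 1, 2 and 3 and 2.56, 1.08 and 1.85 RPKM in the libraries labelled Nf2 KO. Parp9, the ADP-ribosyltransferase that forms a complex with Dtx3l, was at 3.35, 1.87 and 3.51 RPKM in WT (control) replicates 1, 2 and 3 and 2.98, 1.74 and 2.38 RPKM in the libraries labelled Nf2 KO. Both had their lowest values in replicate 2 in each line, with differences of -0.67 (SE 0.12, limma adjusted p = 0.00852) and -0.52 (SE 0.10, limma adjusted p = 0.0114). These genes lie head to head on chromosome 16 and share 458 exon bases on opposite strands (8.0% and 9.40% of their exon bases), so their counts are not fully separate. Trim25, the ligase that modifies RIG-I, was not called at -0.19 (SE 0.09, limma adjusted p = 0.134).

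**Figure D3:**
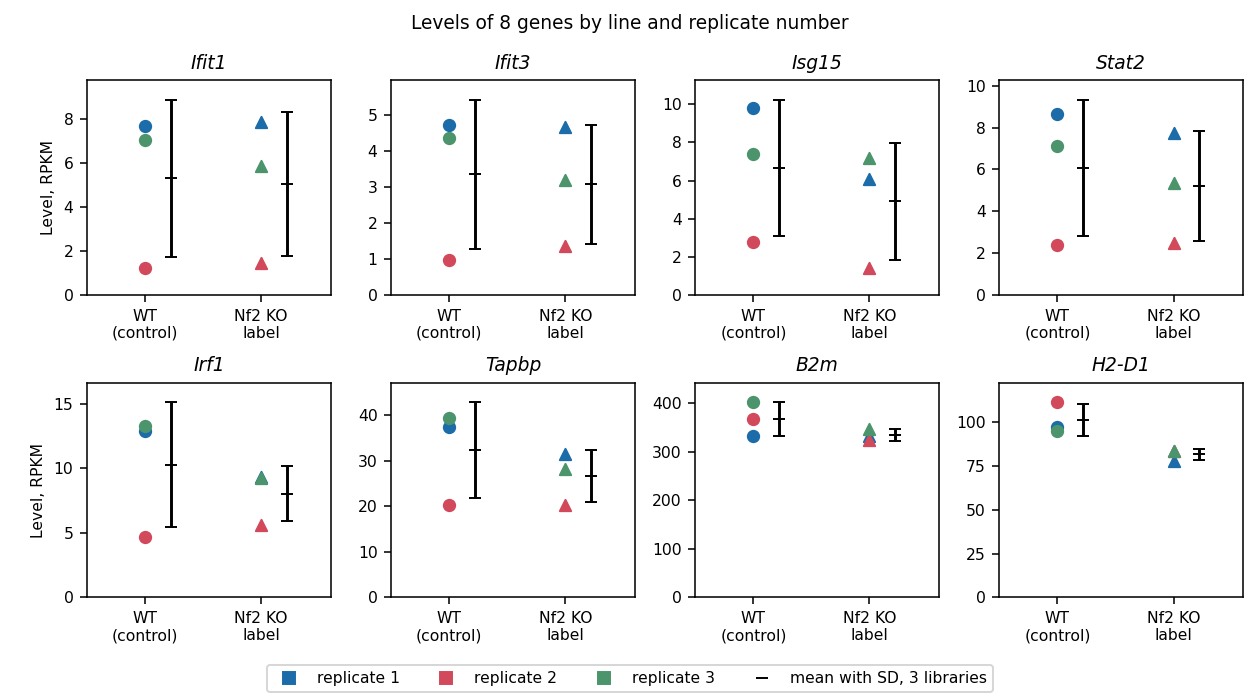
Levels in RPKM of 8 members by line, with 1 point per library colored by replicate number and, beside the points, the mean with SD of 3 libraries. The replicate 2 point is lowest in both lines for Ifit1, Ifit3, Isg15, Stat2, Irf1 and Tapbp, but not for B2m in WT (control) or H2-D1.

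Of the class I presentation genes, 3 of 6 tested fell, while B2m and H2-D1 did not. Of the 3, Psmb8 was under 1 RPKM in both replicate 2 libraries and passed the filter through the others, so it had to differ. The loading factor Tapbp (chr17:33915899-33929292) was at 37.5, 20.4 and 39.4 RPKM in WT (control) replicates 1, 2 and 3 and 31.4, 20.4 and 28.2 RPKM in the libraries labelled Nf2 KO. Both replicate 2 values were near 20.4 RPKM and the rest were at 28.2 RPKM or more, a difference of -0.70 (SE 0.10, limma adjusted p = 0.00425). An opposite-strand gene covers 24.9% of the exon bases of Tapbp. Psmb8, the immunoproteasome subunit that changes which peptides are cut, was at 1.63, 0.636 and 2.26 RPKM in WT (control) replicates 1, 2 and 3 and 0.647, 0.436 and 1.20 RPKM in the libraries labelled Nf2 KO. The replicate 2 difference was -0.62 (SE 0.17, limma adjusted p = 0.0313), with its highest value at 0.636 and the lowest of the rest at 0.647 RPKM. This call was kept in 6 of 16 alternatives, with adjusted p up to 0.303. The heavy chain H2-K1 (chr17:33996017-34000347) was at 37.7, 32.0 and 41.1 RPKM in WT (control) replicates 1, 2 and 3 and 33.6, 27.2 and 39.3 RPKM in the libraries labelled Nf2 KO. Replicate 2 was lowest in each line and below all others, at -0.35 (SE 0.09, limma adjusted p = 0.028), a call kept in 10 of 17 alternatives with adjusted p up to 0.249. Tap1, a chain of the peptide transporter, missed the threshold at -0.37 (SE 0.12, limma adjusted p = 0.0506), and its values were 6.91, 5.11 and 7.29 RPKM in WT (control) replicates 1, 2 and 3 and 10.5, 6.91 and 7.62 RPKM in the libraries labelled Nf2 KO. The other immunoproteasome subunit Psmb9, whose promoter window shares 275 bases with that of Tap1 on chromosome 17, had 0.326 and 0.329 RPKM in replicate 2 and 0.592 to 0.883 RPKM in the rest. B2m did not follow, at 332, 368 and 401 RPKM in WT (control) replicates 1, 2 and 3 and 333, 323 and 347 RPKM in the libraries labelled Nf2 KO. Its difference was -0.03 (SE 0.11, limma adjusted p = 0.851), with an interval of -0.29 to 0.23 that covers 0, and its sign turned under median centring (0.04). The heavy chain H2-D1 was at 97.4, 112 and 95.1 RPKM in WT (control) replicates 1, 2 and 3 and 78.0, 83.8 and 83.5 RPKM in the libraries labelled Nf2 KO, a difference of 0.13 (SE 0.08, limma adjusted p = 0.26), and was with Oas1a 1 of the 2 members whose mean was higher in replicate 2.

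The 14 members under the filter were Oasl1, Oasl2, Oas1a, Rsad2, Cmpk2, Mx1, Mx2, Xaf1, Dhx58, Zbp1, Irf7, Usp18, Parp14 and Psmb9. They include textbook strongly induced genes such as Rsad2 (viperin), Mx1 and Usp18, the brake on the type I receptor, and 12 of the 14 were under 1 RPKM in every library. In 13 of the 14 the mean was lower in replicate 2, a share not counted over all genes. In 12 both replicate 2 libraries lay below the other 4, a position taken by 18.4% of all genes. These values rest on few reads: Cmpk2 had 1.0 and 2.0 recovered reads in replicate 2 against 7.99 to 42.0 in the rest, and Mx1 had 0 to 3.0 in all libraries. As a ratio of means, replicates 1 and 3 were at 7.05 times replicate 2 for Cmpk2, above the ratio of Ifit1, and at 4.91, 4.68 and 4.09 times for Rsad2, Oasl2 and Oasl1, above the 3.64 of Ifit3. Oas1a, a sensor of double-stranded RNA that makes the activator of RNase L, was the exception, at 1.12, 0.970 and 0.638 RPKM in WT (control) replicates 1, 2 and 3 and 0.577, 0.605 and 0.613 RPKM in the libraries labelled Nf2 KO. Its replicate 2 values fell inside the range of the others, and 68.8% of its 31-base stretches occur in other genes, mostly Oas1g.

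**Figure D4:**
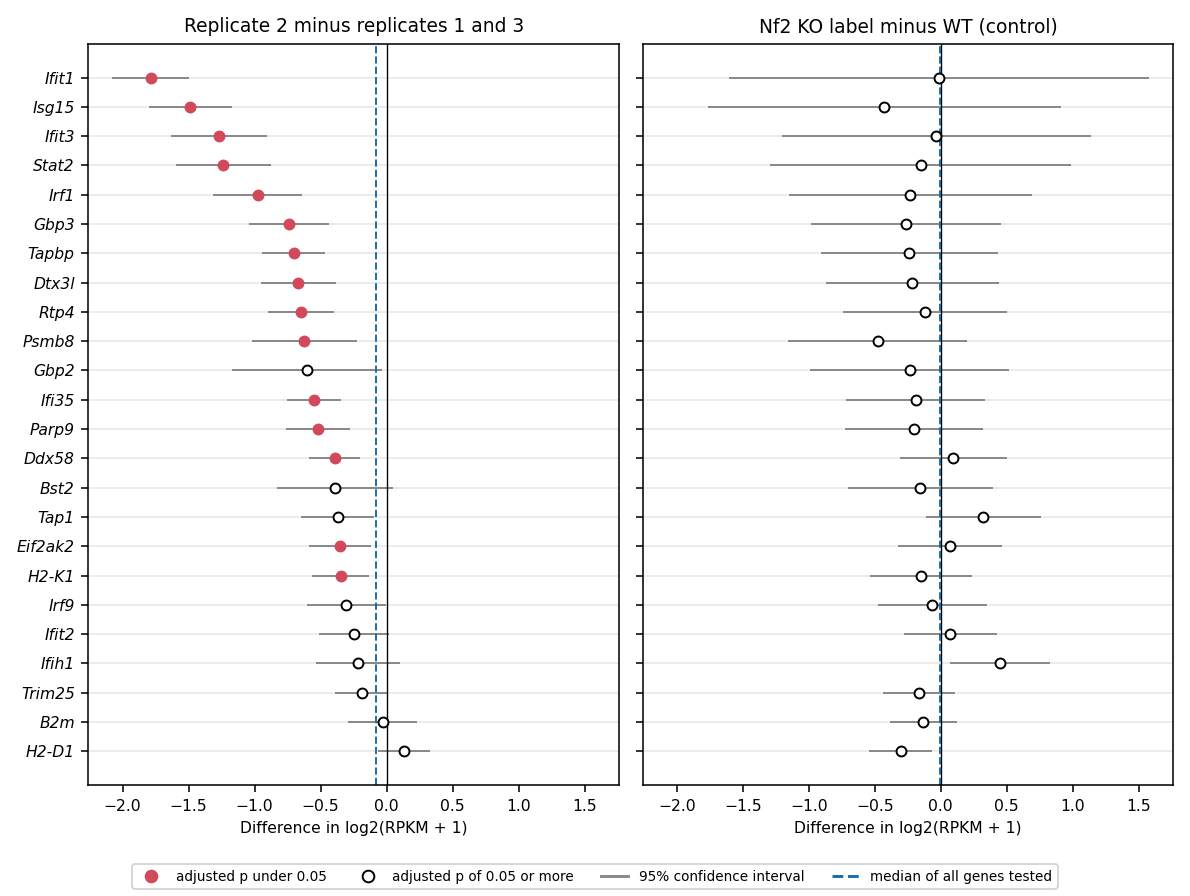
Differences in log2(RPKM + 1) of the 24 tested members with 95% confidence intervals, for replicate 2 minus replicates 1 and 3 (left) and for the Nf2 KO label minus WT (control) (right, without the block). Filled red points had an adjusted p under 0.05: 15 on the left, all below 0, and none on the right, where the intervals are widest for the genes at the top.

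Between the lines, the study asks what loss of Merlin changes in gene expression. No member passed the test between the Nf2 KO label and WT (control): 0 of 24 were called, where 117 of 11067 genes (1.06%) were, and 2 of 24 (Ifih1 and H2-D1) had an unadjusted p under 0.05, where 9.91% of all genes tested had. Limma's voom on recovered reads also called 0. With 1 library left out, 10 to 142 genes and 0 members were called, and the lowest counts came without WT (control) replicates 1 or 3 (11 and 10 genes) or the libraries labelled Nf2 KO replicates 1 or 3 (10 and 18). The difference was negative in 19 of 24, a share not counted over all genes, with a median of -0.15 against -0.01 for all genes tested. This median ran from -0.38 without WT (control) replicate 2 to 0.0037 without the library labelled Nf2 KO replicate 2, where its sign turned. For 18 of 24 the 95% interval of this fit without a block stayed within 1 on the log2 scale, and over all 24 the bounds ran from -1.77 to 1.58. Ifit1, for example, was at 5.30 ± 3.56 RPKM in WT (control) and 5.05 ± 3.27 RPKM in the libraries labelled Nf2 KO (SD, n = 3 each), with a log2 difference of -0.01 (interval -1.61 to 1.58). Isg15 was at 6.67 ± 3.57 RPKM in WT (control) and 4.90 ± 3.05 RPKM in the libraries labelled Nf2 KO (SD, n = 3 each), with -0.43 (interval -1.77 to 0.91).

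Same-numbered libraries deviated together from their line means. Deviations cancel out within a line, so a shift of replicate 2 in both lines also makes replicates 1 and 3 deviate together. Pairing of replicates 1 and 3 could therefore not be shown this way. A model that takes the replicate number as a block was run as an alternative. That fit called 833 genes (7.53%) and 1 member, Ifih1. Its intervals were narrower: over the 24 the bounds ran from -0.77 to 0.67. That of Ifit1 was -0.24 to 0.21, and that of Isg15 was -0.76 to -0.09 and did not cover 0 (limma adjusted p = 0.135). Of the 24, 8 had an unadjusted p under 0.05 with the block, where 23.2% of all genes tested had. Ifih1 was at 0.846, 0.911 and 1.43 RPKM in WT (control) replicates 1, 2 and 3 and 1.79, 1.45 and 2.19 RPKM in the libraries labelled Nf2 KO. Every library labelled Nf2 KO lay above every WT (control) library, although the nearest values, 1.45 and 1.43 RPKM, nearly met. The log2 difference was 0.45 (limma adjusted p = 0.38 without the block and 0.041 with it). In the opposite direction, the class I heavy chain H2-D1 was lower in all 3 libraries labelled Nf2 KO (78.0 to 83.8 RPKM) than in WT (control) (95.1 to 112 RPKM), by -0.30 (interval -0.54 to -0.06, limma adjusted p = 0.333, and 0.0822 with the block), which did not pass. Oas1a also had lines that did not overlap, at 0.911 ± 0.248 RPKM in WT (control) and 0.599 ± 0.0187 RPKM in the Nf2 KO label (SD, n = 3 each), with an exact two-sided permutation p = 0.1, the smallest 3 against 3 can give. Lines that do not overlap were found in 3 of 38 members, in 11.8% of all genes and in 15.1% of those tested.

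Leaving out replicate 2 of both lines, which left 2 libraries against 2, called 484 genes (4.37%) and 1 member. Irf1 was then lower in the libraries labelled Nf2 KO, at 9.29 and 9.24 RPKM against 12.9 and 13.3 RPKM, a log2 difference of -0.45 (limma adjusted p = 0.0419), where all 6 libraries gave -0.23 (limma adjusted p = 0.968). In replicate 2 the order was the reverse, 5.58 against 4.67 RPKM. Whether the line difference itself changed with replicate 2 was tested by an interaction term: 0 of 24 members and 0 of 11067 genes passed (limma), with 2 of 24 and 313 (2.83%) at an unadjusted p under 0.05.

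The rest of the pathway was taken from fixed lists. Ligand transcripts were scarce: of 21 listed interferon genes, 5 had a row (Ifna5, Ifna7, Ifna15, Ifne and Ifnz), each was at 0.312 RPKM or less in every library, and Ifnb1 is not analysed here. The receptor chains were present in all libraries. Ifnar1 was at 12.8, 12.1 and 13.5 RPKM in WT (control) replicates 1, 2 and 3 and 14.2, 11.5 and 12.9 RPKM in the libraries labelled Nf2 KO, and Ifnar2 was at 10.1, 10.4 and 10.4 RPKM in WT (control) replicates 1, 2 and 3 and 10.9, 9.72 and 10.0 RPKM in the libraries labelled Nf2 KO. Ifnar1 was lowest in replicate 2 without overlap and Ifnar2 overlapped, and neither passed the test, with differences of -0.17 and -0.03 (limma adjusted p = 0.137 and 0.748). Ifngr1, a chain of the interferon gamma receptor, went the other way at 15.3, 22.6 and 14.5 RPKM in WT (control) replicates 1, 2 and 3 and 13.7, 22.7 and 14.8 RPKM in the libraries labelled Nf2 KO. Both replicate 2 libraries were above the other 4, and the rise was 0.61 (SE 0.07, limma adjusted p = 0.00256). Its partner Ifngr2 was at 17.2, 19.2 and 19.1 RPKM in WT (control) replicates 1, 2 and 3 and 13.5, 15.2 and 13.0 RPKM in the libraries labelled Nf2 KO, which differed between the lines with the block only (-0.39, limma adjusted p = 0.0337 against 0.187 without it).

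Of 14 tested receptors, kinases and transcription factors, 1 rose (Ifngr1) and 3 fell in replicate 2: Socs3 (-1.01, a feedback inhibitor of cytokine signalling), Stat3 (-0.58) and Irf3 (-0.22). These shares are near those of all genes tested, 10.8% higher and 19.8% lower. Leaving out 1 of the replicate 2 libraries called 1 of the 14 (Ifngr1) in either case, and leaving out WT (control) replicate 3 called 2, 1 of them lower, where 13.6% of all genes were called lower. Ifngr1 was called under all 17 alternatives and Irf3 under 3 of them. The median was -0.03, above the -0.08 of all genes. Of 11 tested genes that lead to interferon production, 2 fell, the adaptors Ticam1 (-0.42) and Tmem173 (STING, -0.37), and none rose, again near the 19.8% called lower among all genes. With 1 library left out, 2 were called without WT (control) replicate 1, 0 without the library labelled Nf2 KO replicate 2 and 1 in the other 4 fits, and Tmem173 was called under 7 of 17 alternatives. Cgas, the DNA sensor upstream of STING and listed under its later symbol, rose by 0.38 (limma adjusted p = 0.0192). Nlrc5, the activator of class I gene transcription, did not reach the filter and was at 1.42, 0.882 and 1.31 RPKM in WT (control) replicates 1, 2 and 3 and 0.736, 0.617 and 0.498 RPKM in the libraries labelled Nf2 KO. Its WT (control) values were all above its values in the Nf2 KO label.

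Most other interferon-induced genes that were tested also fell in replicate 2. Of 36 tested of 69 listed, 23 fell in replicate 2 and 1 rose (Lgals9, 0.38), with a median of -0.46 against -0.08 for all genes tested, where 19.8% were called lower and 10.8% higher. Of the 36, 7 were under 1 RPKM in both replicate 2 libraries and passed the filter through the others (Tgtp2, Ifit3b, Ifi47, Cxcl10, Gbp7, Oas1c and Ifitm1, named after their values were seen), so they had to differ, and all 7 were among the 23. A filter on the mean gave 22 falls and 1 rise among 35, but it lets 5 of these 7 in through the same libraries, drops Ifitm1 and Oas1c and adds Tgtp1. The 5 largest falls were those of the GTPase Tgtp2 (-1.11), Ifitm2, which blocks virus entry (-0.93), Ifit3b (-0.90), the GTPase Ifi47 (-0.82) and Lgals3bp (-0.80). Ifitm2 was the most abundant of these, at 129, 72.9 and 167 RPKM in WT (control) replicates 1, 2 and 3 and 117, 66.4 and 124 RPKM in the libraries labelled Nf2 KO. Its replicate 2 libraries were below all others, and its call held under all 17 alternatives. With 1 library in replicate 2 fewer of the 36 were called, 4 without that of WT (control) and 7 without that of the Nf2 KO label, all lower, where 4.63% and 3.76% of all genes were called lower. Quantile normalization called 15, 13 of them lower, where 12.8% of all genes were. Without a filter 6 of all 69 were called, all lower, where 1.92% of 26231 genes were called lower. Between the lines, 2 of the 36 fell in the Nf2 KO label, where 0.578% of all genes tested were called lower: Ifi202b, of the DNA-binding Ifi200 family, at 8.49, 7.49 and 9.29 RPKM in WT (control) against 3.65, 2.17 and 2.36 RPKM, by -1.35 (SE 0.17, limma adjusted p = 0.0275), and Ifi27 at 10.3, 13.0 and 9.77 against 5.65, 5.80 and 4.42 RPKM, by -0.94 (SE 0.14, limma adjusted p = 0.0432). With the block 2 rose and 8 fell, where 2.99% of all genes tested were called higher and 4.54% lower. The risers were Lgals9 (0.95) and the chemokine Cxcl10 (0.61), with limma adjusted p = 0.00543 and 0.041, and the largest fall beside those 2 was that of Ifi204 (-0.83). With the block both calls held (limma adjusted p = 0.00578 for Ifi202b and 0.00517 for Ifi27), as they did without replicate 2 of both lines (limma adjusted p = 0.0098 and 0.0124). Over all alternatives Ifi202b was called in 12 of 16 and Ifi27 in 7 of 16. Both were lost without a filter (limma adjusted p = 0.134 and 0.155). Ifi27 was also lost after quantile normalization (0.0538) and median centring (0.0562). With 1 library left out and no block, the differences stayed between -1.52 and -1.25 for Ifi202b and between -1.01 and -0.82 for Ifi27, but Ifi27 was not called in any of 6 fits (limma adjusted p = 0.0517 to 0.171), and Ifi202b was not called without WT (control) replicates 1 or 3 or the library labelled Nf2 KO replicate 3 (limma adjusted p = 0.142, 0.127 and 0.127).

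In the list of other antigen presentation genes, 7 of 15 tested fell in replicate 2, none rose and the median was -0.30, against 19.8% lower and a median of -0.08 for all genes tested. The 5 largest falls were those of Psme1 (-0.75) and Psme2 (-0.46), which cap the proteasome, Tap2 (-0.65), the partner of Tap1, the chaperone Calr (-0.48) and Tapbpl (-0.41), a relative of tapasin. None of the 15 passed the test between the lines, with or without the block. Without WT (control) replicate 2 only 2 of the 15 were called in replicate 2, without the library labelled Nf2 KO replicate 2 it was 4, where 4.63% and 3.76% of all genes were called lower. Median centring also gave 4, where 13.9% were. The calls of Psme1 and Tap2 held under all 17 alternatives, that of Tapbpl under 5 of 16.

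**Figure D5:**
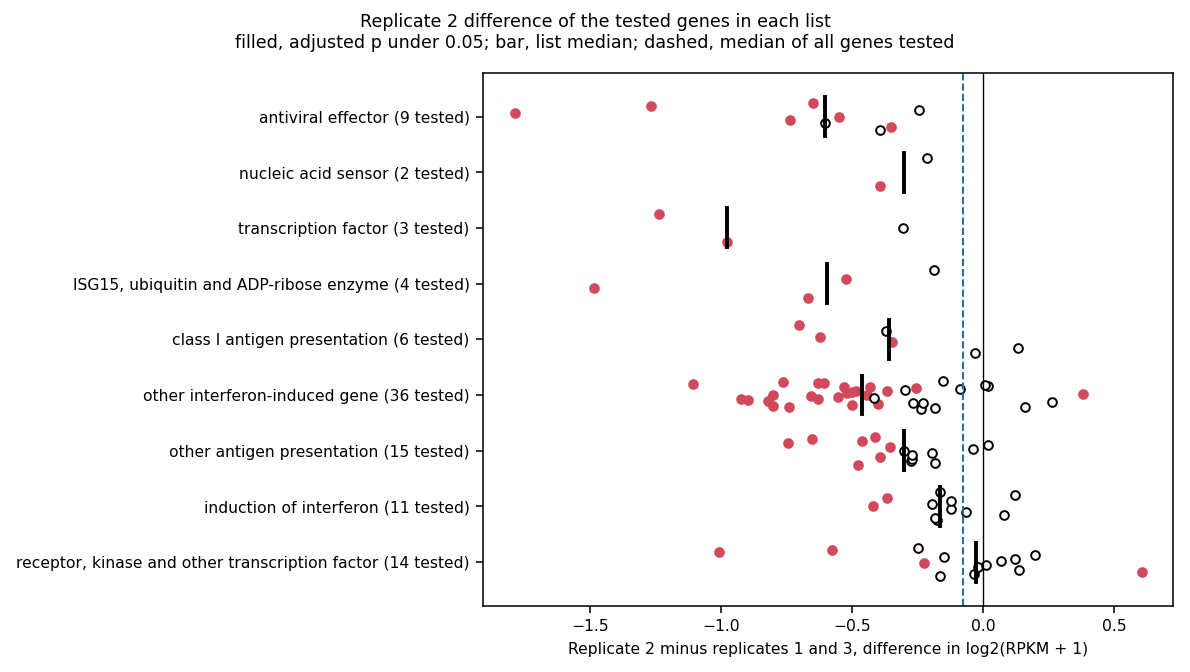
Replicate 2 minus replicates 1 and 3 in log2(RPKM + 1), 1 point per tested gene, for the 5 role groups of the members and 4 pathway lists, with a bar at each list's median. Filled points had an adjusted p under 0.05, and the dashed line at -0.08 is the median of all genes tested: the medians of the member groups lie between -0.98 and -0.30, and that of the receptor and kinase list at -0.03.

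Promoter letters were set beside the calls as a description. Of the 15 members that fell in replicate 2, 13 had a promoter, with an ISRE in 7 (Ifit1, Ifit3, Gbp3, Eif2ak2, Ddx58, Stat2 and Isg15) and a GAS in 4 (Ifi35, Eif2ak2, Irf1 and Psmb8). Of the 9 tested members that did not, all had a promoter, with an ISRE in 4 (Bst2, Gbp2, Ifih1 and B2m) and a GAS in 2. Of the 14 under the filter, 8 had a promoter, with an ISRE in Oas1a and Rsad2. The 3 tested members with the largest falls on the log2(RPKM + 1) scale, Ifit1, Isg15 and Ifit3, all hold 2 or more ISRE matches, as do Gbp3, Bst2 and Oas1a, of which the last 2 were not called. Cmpk2, Oasl1 and Oasl2, whose ratios were higher than that of Ifit3, hold none, and Rsad2, whose ratio was higher too, holds 1.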

How the data were processed

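RNA was extracted with the RNeasy Mini kit, and GENEWIZ prepared, sequenced and analysed the libraries. The authors deposited 1 table of 26231 genes and 6 libraries, whose values behave as RPKM (reads normalized to the length of a gene's exons and to the size of the library): for 26033 genes with an exon length in GENCODE M21, 83.3% to 85.3% of values of up to 20 reads were whole multiples of 1 read (tolerance 0.05, chance 10%), which also gave the depths. The submitters' notes name mm10. Aligner, counting tool and strand are not given in the sources used here.

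Values were set to log2(RPKM + 1), and a fold on this scale understates low genes. The 11067 genes that reached 1 RPKM in 3 libraries or more entered a two-sided test with limma 3.58.1 in R 4.3.3, using its trend and robust options. The threshold was 0.05 after Benjamini-Hochberg adjustment over these genes, and the script was tested on simulated data first. The line comparison had no covariate, the replicate 2 comparison had the line as a term. Across genes, the departures of both lines from their means correlated at 0.552, 0.819 and 0.516 in replicates 1, 2 and 3. Departures cancel out within a line, so the shift of replicate 2 in both lines also raises the values of replicates 1 and 3. Pairing of replicates 1 and 3 was not shown by these values, and a replicate block was an alternative. Nf2 and members under the filter were tested by exact permutation. Reads, intervals and 31-base stretches shared between genes are descriptions, and counting error is only a part of the spread.

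The members and lists were chosen with earlier results of these data known. Values in every library are given for members past the threshold in a comparison and for the highest member of each role, and of the pathway lists at most 5 called genes per list and comparison, beside Nlrc5 and the receptors. One listed pathway gene is not reported here and was left out of its list's counts. Ifit2, Tap1, Psmb9, H2-D1, Oas1a, Cmpk2, Rsad2, Oasl1, Oasl2 and Mx1 were given values after these were seen. Alternatives were other normalizations, filters, pseudocounts, limma settings, voom on recovered reads and left-out libraries. The filter on the mean was added after the data were seen. Coordinates are GENCODE M21 and promoters RefSeq, both on GRCm38.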

Additional observations from a re-analysis of the deposited data

How the results depend on the processing

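The 15 called members that were lower in replicate 2 kept that direction under every alternative, and 346 of 397 gene-wise values over the alternatives kept their side of the threshold, 41 lost it and 10 gained it. Quantile normalization called 13, median centring 12 and the filter on the mean 14. All were lower, where 12.8%, 13.9% and 19.6% of genes tested were called lower. Voom called 15 and a pseudocount of 0.1 called 16, all lower, where 2046 of 11046 and 2258 of 11067 genes were called lower. No filter called 7 of 38 members, all lower, and 884 of 26231 genes, 503 of them lower. A filter of 5 RPKM called 9 of 14 members, all lower, where 1414 of 7117 genes were called lower. Without the line term 1976 genes were called in place of 3386. With 1 library left out, 6 to 16 members and 699 to 3375 genes were called, the lowest without a replicate 2 library (6 members and 832 genes without that of WT (control), 8 and 699 without that of the Nf2 KO label). Between the lines, 371 of 373 gene-wise values kept their side of the threshold (no member was called there), and signs of small differences turned, as that of Ifit1, which was negative in 11 of 16 alternatives. The replicate block, which takes the numbers as pairs, called 833 genes and 1 member (Ifih1). No filter called 9 genes, and a filter of 5 RPKM called 63. With 1 library left out, 10 to 142 genes and 0 members, and with replicate 2 of both lines left out, 484 genes and 1 member (Irf1) were called. The median line difference of the members, -0.15 in all 6 libraries, ran from -0.38 without WT (control) replicate 2 to 0.0037 without the library labelled Nf2 KO replicate 2, where its sign turned. The called pathway genes kept their direction throughout and their side of the threshold in 434 of 610 values for replicate 2 and 19 of 32 between the lines. The cause of these changes was not tested, apart from the fewer or more genes that a filter leaves. The members under the filter had at most 71.0 recovered reads in replicates 1 and 2. Of these members, 12 were also under 1 RPKM in the deeper replicate 3 libraries, and the part of depth was not tested.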
